A study of Saccharomyces cerevisiae with 12 samples.

Results

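A set of 10 genes of beta-1,3-glucan remodelling in budding yeast were followed through the first 6.0 h of sporulation: the transglycosylase family GAS1 to GAS5, the exoglucanases SPR1, EXG1 and EXG2, the wall enzyme BGL2 and the CRH-family gene CRR1. They were chosen by locus name, and 9 of the 10 had spots under their own locus name among the 6293 genes of the array. They were set out as 4 sporulation members (GAS2, GAS4, SPR1 and CRR1) and 5 measured vegetative members (GAS3, GAS5, EXG1, EXG2 and BGL2). GAS1 (YMR307W) had no row under its name and is without a value.

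Beta-1,3-glucan is the main load-bearing polymer of the yeast cell wall. Enzymes of the GAS family elongate its chains by cutting an internal bond and joining the freed end to another chain, while exoglucanases trim chain ends and endo-acting enzymes cut within them. During sporulation a diploid cell goes through meiosis, wraps each nucleus in a prospore membrane and builds a layered spore wall, in which mannoprotein and beta-glucan lie beneath chitosan and dityrosine.

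All RNA came from the SK1 strain, which is known for fast and even sporulation. There were 12 samples, taken at 0.0, 0.5, 1.0, 1.5, 2.0, 2.5, 3.5, 4.0, 4.5, 5.0, 5.5 and 6.0 h, each pooled from 6 synchronized cultures of the same day. Each sample was compared with RNA of time zero on 2 two-colour arrays with exchanged dyes, which makes 24 arrays. On the A array Cy5 marked the later RNA, and on the B array Cy3 did. No genotype change or added agent is given in the labels, and pooling leaves the spread between cultures unmeasured.

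Each value is the log2 of a time over time zero, as the mean of the A and B arrays unless an array is named. Times were placed in 4 windows: zero (0.0 h, 1 sample), early (0.5 to 2.0 h, 4 samples), middle (2.5 to 4.5 h, 4 samples) and late (5.0 to 6.0 h, 3 samples). A change from window to window is the later mean minus the earlier, given with its standard error (SE) from a limma fit over 6283 genes, and a gene was called when its adjusted p was under 0.05. The spread behind the p-values is that of neighbouring times within a window, not of repeated cultures. A channel counted as above background for a gene where the mean intensity exceeded that of 95% of the blank spots.

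The arrays of 1 time with exchanged dyes did not always go together. Across genes their r had a median of 0.270, and it was -0.01 at 5.0 h and -0.02 at 6.0 h, which are 2 of the 3 late samples. The share of genes above background in the later RNA ran from 23.9% to 89.2% over the arrays. At 0.0 h, where both channels hold the same RNA, the 9 members lay between -0.72 and 0.10, with 8 of them below 0. Of 10 marker genes of sporulation, 5 were called higher in the late than the middle window, against 3.31% of all genes tested. The median log2 ratio of the 10 was 2.04, 3.24 and 3.08 at 5.0, 5.5 and 6.0 h. In whole-culture RNA, more cells that express a gene and more RNA per cell cannot be told apart.

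The 4 sporulation members were high late and the vegetative members were not. GAS2, GAS4 and SPR1 rose from the middle to the late window by 4.64, 3.75 and 3.96 on the log2 scale, and CRR1 was at 2.48 without passing the test. The middle-window ratios behind these changes were mostly of dim spots: in the later RNA GAS2 and GAS4 were above background on 1 of 8 middle arrays each and SPR1 on 3 of 8, so the sizes are less sure than their SE. None of the 5 vegetative members was called by limma in any contrast of the reported fit. At an unadjusted p under 0.05 there was 1 (EXG2) in late minus middle, 1 (EXG2) in late minus zero and 0 in the others. Of all 6283 genes, 1191 were under that p in late minus middle and 734 in late minus zero. Against the background of all genes, 208 of 6283 were called higher in late minus middle, which is 3.31%, and 20 were called lower, which is 0.318%.

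GAS2 (YLR343W) encodes a glucanosyltransferase of the spore wall that acts together with the GAS4 product. Its log2 ratios were 0.08, 0.06, -0.01 and 0.48 at the early times, 0.33, 1.83, 0.11 and 0.39 at the middle times and 3.68, 7.33 and 4.90 at 5.0, 5.5 and 6.0 h. The time-zero value was -0.55. All 3 late values lay above all earlier ones, and 3.5 h stood highest among the rest. The late minus middle change was 4.64 ± 0.67 (SE, limma adjusted p = 0.0023, n = 3 against 4 times).

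In the time-zero RNA GAS2 was above background on none of the 24 arrays. In the later RNA it passed on 0 of 8 early arrays, 1 of 8 middle arrays and 4 of 6 late arrays. Its late level was therefore bounded as at least 9.62-fold higher than at time zero. The bound was taken from the late mean and the lowest signal counted as above background in the time-zero RNA of the late arrays. Passing was judged on raw intensity, while the levels were adjusted within and between arrays, so the bound is approximate. The late mean includes the late arrays on which GAS2 was below background. No test was run on the bound. The fitted late minus zero change was 5.85 ± 1.01 (SE, limma), from ratios whose time-zero signals were below background. Time zero is a single sample, assumed to vary like the others. In a fit of the 24 arrays with time as a random block, GAS2 late minus zero had a limma adjusted p of 0.294, and 0 of 6053 genes were called. With scaling between arrays the late minus middle change was 2.68 (adjusted p = 0.0222).

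GAS4 (YOL132W) encodes the other sporulation transglycosylase of the family. Its log2 ratios were 0.25, 0.03, 0.45 and -0.23 early, 0.37, 2.41, 0.41 and -0.06 in the middle window and 3.40, 4.60 and 5.57 late. The late values again cleared every earlier one, with the highest at 6.0 h rather than at 5.5 h. The change was 3.75 ± 0.58 (SE, limma adjusted p = 0.0032). The 5.5 h value came from the A array alone, since the B array gave no usable ratio.

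GAS4 passed the background on the same number of arrays as GAS2 in the later RNA: 0 of 8 early, 1 of 8 middle and 4 of 6 late. In the time-zero RNA it was above background on 0 of 6 late arrays. The late level is therefore given, by the same approximate bound, as at least 9.91-fold higher than at time zero. The fitted late minus zero change was 5.00 ± 0.87 (SE, limma), and no test was run on the bound. GAS4 could not be tested in the 24-array fit. Its late minus middle change was 2.50 with scaling between arrays (adjusted p = 0.0438) and 2.03 in a fit to the authors' deposited table (adjusted p = 0.0245).

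SPR1 (YOR190W) encodes a sporulation-specific exo-1,3-beta-glucanase, the counterpart in sporulation of EXG1. It was at -0.21, -0.08, -0.33 and -0.34 early, 0.28, 2.78, 0.74 and 0.76 in the middle window and 3.38, 7.63 and 4.28 late. Its late and earlier values did not overlap. The change from middle to late was 3.96 ± 0.82 (SE, limma adjusted p = 0.0143), and without the 2.5 h sample the adjusted p was 0.0552. With scaling between arrays the change was 2.17 and was not called (adjusted p = 0.0983). Against time zero the change was 5.80 ± 1.23 (SE, limma). It passed the threshold only narrowly, and did not pass once any of the early samples or the 2.5, 4.0 or 4.5 h sample was left out. It was not called in the 24-array fit. SPR1 was above background on both 0.0 h arrays, but its time-zero RNA was so on only 1 of 6 late arrays. The size of the late minus zero change is therefore less sure than its SE.

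CRR1 (YLR213C) encodes a putative glycosidase of the CRH family that is needed for normal spore wall assembly. It was at -0.32, -0.11, -0.36 and 0.64 early, 1.05, 2.71, 0.56 and -0.72 in the middle window and 2.57, 4.52 and 3.05 late. The 3.5 h value lay between the lowest and the middle of the late values, so middle and late overlapped. The change was 2.48 ± 0.66 (SE, limma adjusted p = 0.0588). With 3.5 h left out it was 3.09 and passed (adjusted p = 0.0073), as it did with median centring in place of loess, at 3.24 (0.0268). It was 1.34 (0.552) with spots marked S left out, 1.28 (0.452) with scaling between arrays and 1.11 (0.728) with windows that end at 1.5, 4.0 and 6.0 h.

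CRR1 was above background on more early and middle arrays than the other sporulation members. Its later RNA was above background on 4 of 8 early arrays, 7 of 8 middle arrays and 5 of 6 late arrays. Its time-zero RNA passed on both 0.0 h arrays but on only 2 of 6 late arrays. The late minus zero change was 3.28 ± 1.00 (SE, limma adjusted p = 0.182), and it was 2.14 with spots marked S left out and 2.04 with scaling. CRR1 was the lowest of the 4 sporulation members at each of the 3 late times.

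**Figure D1:**
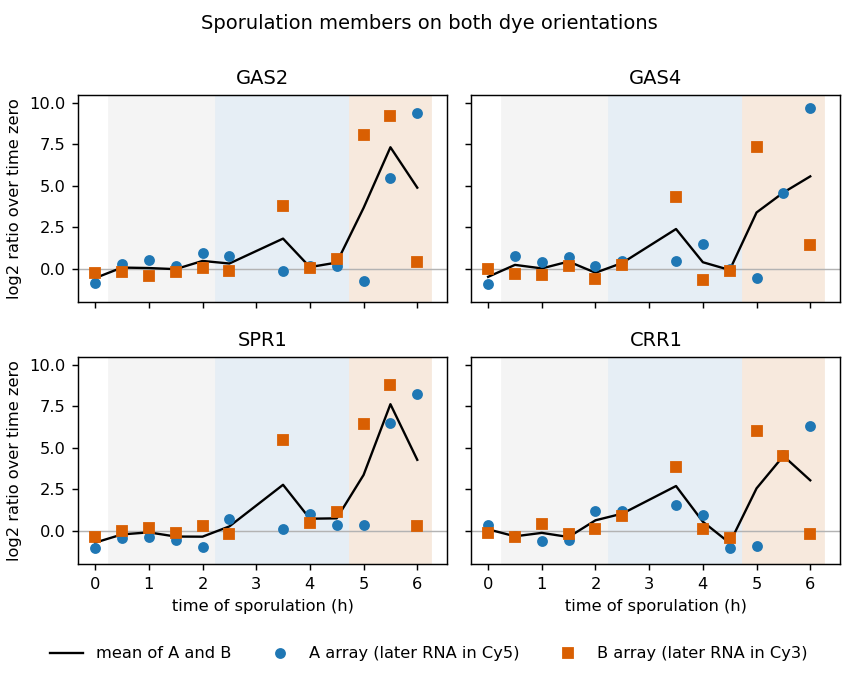
Log2 ratio over time zero (vertical axis) of GAS2, GAS4, SPR1 and CRR1 against time of sporulation in hours (horizontal axis). Blue circles are A arrays, orange squares B arrays and the line their mean; grey, blue and orange shading mark the early, middle and late windows. At 5.5 h every plotted array value is above 4, while at 3.5 and 5.0 h the high values come from B arrays and at 6.0 h from A arrays.

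Among the late times, both dye orientations were high at 5.5 h only. There GAS2 was at 5.47 on the A array and 9.19 on the B array, SPR1 at 6.48 and 8.78, and CRR1 at 4.55 and 4.49. The B value of SPR1 rests on 1 spot. GAS4 was at 4.60 on its A array. The 5.5 h B spots of GAS2, SPR1 and CRR1 were marked S, a mark without a stated meaning. The time-zero RNA of all 4 members was below background on both 5.5 h arrays, so the sizes are unsure. With spots marked S left out, late minus middle was 4.02 for GAS2, 3.55 for SPR1 and 1.34 for CRR1.

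At 5.0 h the values were high on the B array alone. GAS2 was at -0.69 on A and 8.05 on B, GAS4 at -0.55 and 7.36, SPR1 at 0.33 and 6.42, and CRR1 at -0.87 and 6.01. At 6.0 h the orientations were exchanged, with GAS2 at 9.37 on A and 0.42 on B, GAS4 at 9.68 and 1.47, SPR1 at 8.26 and 0.30, and CRR1 at 6.31 and -0.21. The 6.0 h B array had 28.8% of genes above background in the later RNA and its A array 87.3%; at 5.0 h these were 62.9% on A and 80.1% on B.

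The 3.5 h values were split in the same manner. GAS2 was at -0.12 on A and 3.77 on B, GAS4 at 0.50 and 4.31, SPR1 at 0.10 and 5.47, and CRR1 at 1.58 and 3.83. The 3.5 h A array had 25.2% of genes above background in the later RNA against 73.5% on B. The part of array quality in these splits was not tested.

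Results that rest on the late window were also computed with the 5.0 and 6.0 h samples left out, which leaves 5.5 h as the only late sample, assumed to vary like the others. GAS2 was then at 6.66 (limma adjusted p = 0.000164), SPR1 at 6.49 (0.000554), GAS4 at 3.82 (0.0092) and CRR1 at 3.62 (0.0328) for late minus middle. All 4 sporulation members were called in that fit, but so were 702 of 6284 genes, which is 11.2%. The sample kept is the late one in which both arrays were high, so the choice itself favours larger values. On A arrays alone the late minus middle changes were 4.46, 3.96 and 4.48 for GAS2, GAS4 and SPR1, and on B arrays alone GAS2 was at 4.81 and SPR1 at 3.44. None passed the test on a single orientation, where adjusted p ran from 0.23 to 0.345. No gene at all passed there: 0 of 6168 on A arrays and 0 of 6158 on B arrays. None was called either with windows that end at 1.5, 4.0 and 6.0 h or with B arrays not turned, settings in which 0 of 6283 genes were called.

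The raw intensities show the same arrays. For GAS2 the later RNA gave 297662 intensity units on the 5.5 h A array against a blank level of 48523, and 949991 against 16765 on the B array. On the 6.0 h A array it gave 2609140 against 2729, and on the 6.0 h B array 58969 against 171450. The first 3 of these were above background and the last was not.

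**Figure D2:**
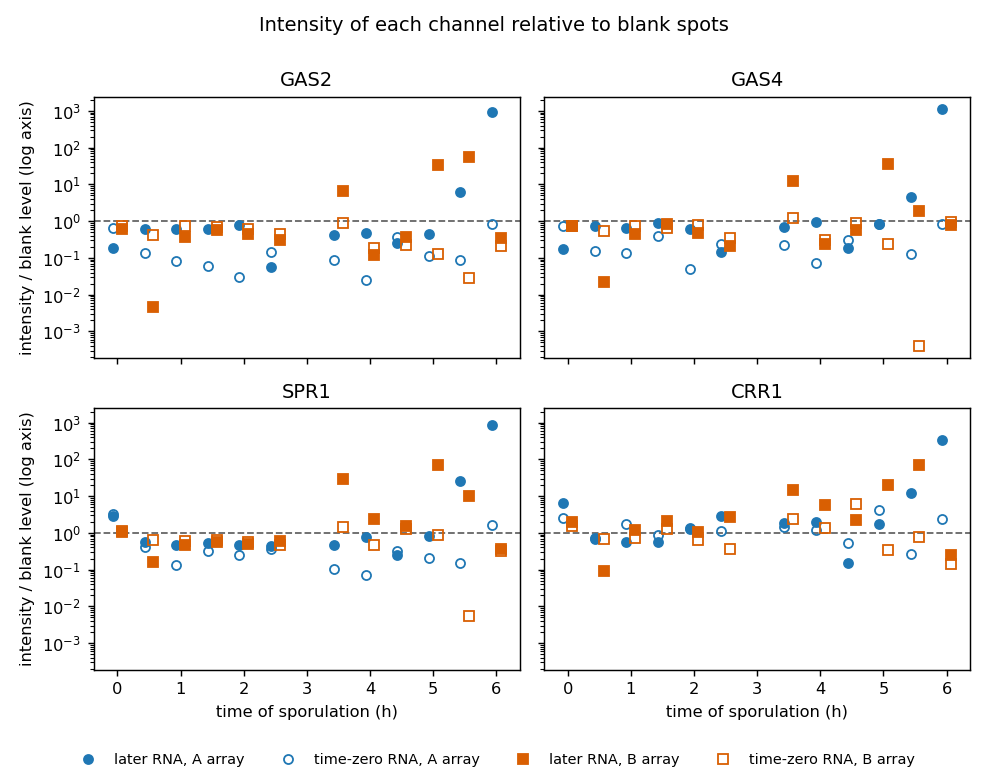
Intensity of each channel divided by the 95th percentile of blank spots on the same array (vertical axis, log scale) for the 4 sporulation members against time in hours. Filled marks are the later RNA and open marks the time-zero RNA, circles A and squares B arrays, and the dashed line is the blank level; values at or below 0 are not drawn. GAS2 stays below the line in the time-zero RNA on all 24 arrays and passes it in the later RNA on 4 of the 6 late arrays.

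Among the transglycosylases of vegetative growth, GAS3 (YMR215W) and GAS5 (YOL030W) gave no call. GAS3 lay between 0.07 and 1.53 from 0.5 h onward, with its highest value at 2.0 h, where A gave 2.56 and B 0.50. Its late minus middle change was -0.19 ± 0.37 (SE, limma adjusted p = 0.831). GAS5 was above background on every early, middle and late array in the later RNA and ran from -1.26 at 5.5 h to 0.41 at 0.5 h. Its change was -0.51 ± 0.43 (SE, limma adjusted p = 0.571).

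TMR307W is a row name on the array that differs from the GAS1 locus by its first letter, and it is given under its own name without being counted as GAS1. It lay between -0.26 and 0.23 from 0.5 to 4.5 h and was at -0.44, -1.98 and 0.43 late, and it passed the background on 2 of 6 late arrays in the later RNA. Its late minus middle change was -0.54 ± 0.44 (SE, limma adjusted p = 0.556). At 5.0 h the time-zero intensity of TMR307W was 6519 on the A array and 2329000 on the B array. The blank levels there were 30052 and 17916. The A and B arrays thus did not read this row alike, and its mean ratios are a description only.

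EXG1 (YLR300W), the major secreted exo-1,3-beta-glucanase of growing cells, varied in both directions. It was at 1.25, -1.13, -1.23 and -0.39 early, 1.58, -0.93, -0.49 and 1.18 in the middle window and 0.39, -1.81 and -0.78 late. Windows overlapped throughout, and late minus middle was -1.07 ± 0.73 (SE, limma adjusted p = 0.478).

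BGL2 (YGR282C), a major wall protein that cuts and rejoins beta-1,3-glucan, varied in both directions too. Its values were 0.50, -1.14, -1.98 and -0.80 early, 1.27, -1.69, 0.33 and 1.00 in the middle window and -0.02, -2.01 and -0.45 late. It was above background on all 24 arrays in both channels, and the SD over the 4 middle times was 1.34. Late minus middle was -1.05 ± 0.73 (SE, limma adjusted p = 0.486).

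EXG2 (YDR261C), an exo-1,3-beta-glucanase held at the cell surface by a lipid anchor, had its highest values at 5.5 and 6.0 h, at a much smaller size than the sporulation members. It was at 0.43, 1.33 and 1.04 late and between -0.46 and 0.43 at all earlier times. Late and earlier values did not overlap, though 5.0 h exceeded 3.5 h only narrowly. On the A and B arrays EXG2 was at 0.05 and 0.82 at 5.0 h, 0.61 and 2.05 at 5.5 h, and 2.18 and -0.11 at 6.0 h. The late minus middle change was 0.73 ± 0.32 (SE, limma adjusted p = 0.235), and late minus zero was 1.24 ± 0.48 (adjusted p = 0.326), or 2.07 (0.807) with median centring. Tested for a difference from 0 rather than from the time-zero sample, its late mean of 0.93 passed (adjusted p = 0.0148), in a setting that called 1422 of 6283 genes, or 22.6%. Its later RNA was above background on 0 of 8 early, 2 of 8 middle and 3 of 6 late arrays.

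**Figure D3:**
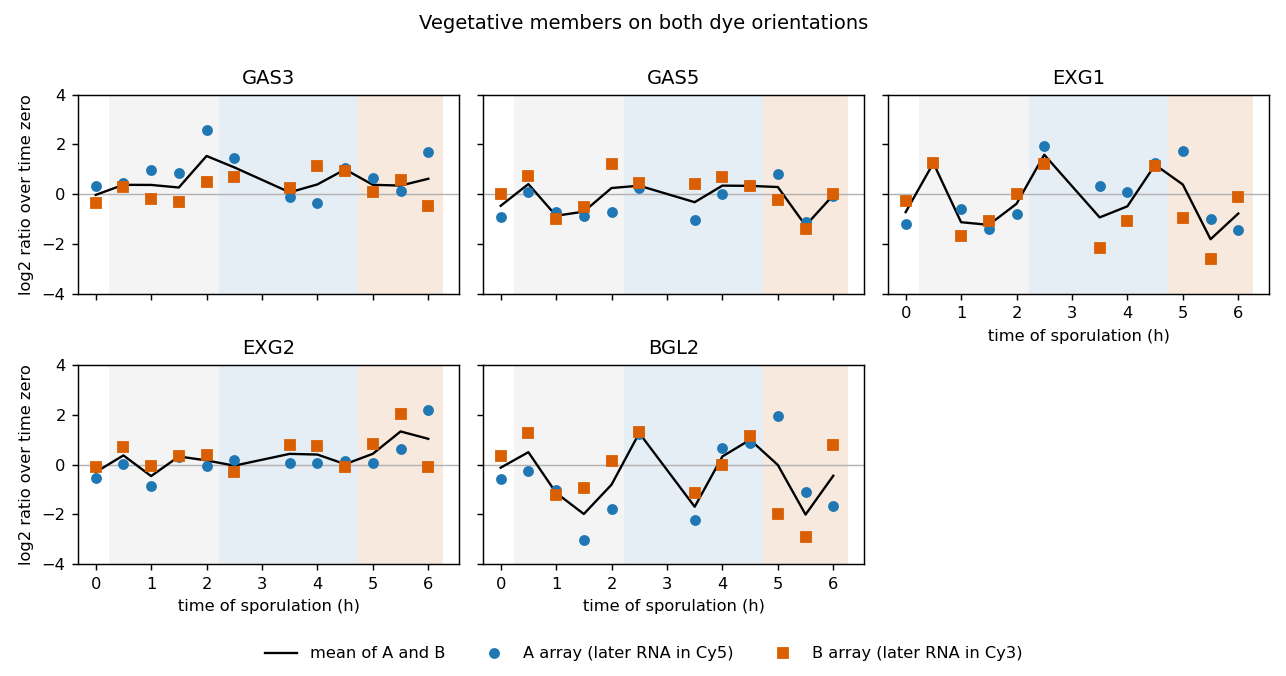
Log2 ratio over time zero (vertical axis) of GAS3, GAS5, EXG1, EXG2 and BGL2 against time in hours, with marks, line and shading for A arrays, B arrays, their mean and the windows as for the sporulation members, on a narrower vertical scale. No mean passes 1.58 or falls below -2.01, and only EXG2 has its 3 late means above all earlier ones.

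Set beside each other by time, the sporulation members averaged between -0.40 and 0.50 from 0.0 to 2.5 h, and the vegetative members between -0.66 and 0.84. The difference of the 2 means, sporulation minus vegetative, was 2.92 at 3.5 h, 0.26 and -0.61 at 4.0 and 4.5 h, and 2.96, 6.70 and 4.37 at the late times. The lowest sporulation member lay above the highest vegetative member at 3.5, 5.0, 5.5 and 6.0 h and at no other time. By window the difference was 0.14 ± 0.59 early (SD, n = 4 times), 0.56 ± 1.62 in the middle (SD, n = 4) and 4.68 ± 1.89 late (SD, n = 3). With scaling between arrays the late difference was 2.95, and it was 3.32 in the authors' deposited table. It was 4.18 on A arrays and 5.42 on B arrays, but by time it was -1.49 on A and 7.42 on B at 5.0 h, 5.77 and 8.35 at 5.5 h, and 8.27 and 0.48 at 6.0 h. The split into 2 sets follows known roles but was set with earlier results of these data known, so no p is given for it.

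**Figure D4:**
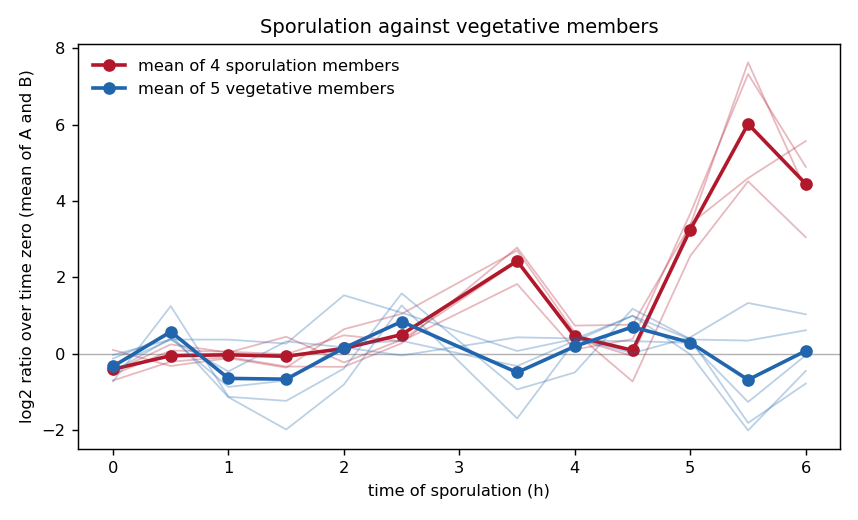
Mean log2 ratio over time zero (vertical axis) of the 4 sporulation members (red) and the 5 vegetative members (blue) against time in hours; thin lines are single genes, each the mean of its A and B arrays. The sets lie apart at 3.5 h and at the 3 late times, with the widest difference, 6.70, at 5.5 h.

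Every late time above every middle time was seen for 4 of the 9 members (GAS2, GAS4, SPR1 and EXG2), against 9.93% of all genes tested. The same 4 had every late time above every earlier time, against 6.21% of all genes. Late against zero called GAS2, GAS4 and SPR1, where 0.891% of all genes were called higher. A spline of time with 3 degrees of freedom, which uses no windows, called GAS2 (limma adjusted p = 0.044) and GAS4 (0.024), where 0.637% of all genes were called. SPR1 had an adjusted p of 0.08 and CRR1 of 0.256 in that fit.

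Before the late window nothing was called. Middle minus early gave 0 of 9 members and 0 of 6283 genes (0%), and early minus zero likewise 0 members and 0 genes (0%), by limma's adjusted p. At an unadjusted p under 0.05 there were 459 and 369 genes, with 0 members among them. GAS2, GAS4, SPR1 and EXG2 were not above background in the later RNA on any early array, so no fold is given for them in these contrasts. CRR1 was at 0.93 ± 0.62 (SE, limma adjusted p = 0.783) for middle minus early, and GAS3 at 0.67 ± 0.54 (adjusted p = 0.935) for early minus zero.

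Over the 12 times the 6 pairs among the sporulation members had r between 0.90 and 0.98, the highest for GAS2 and SPR1. Among the 10 vegetative pairs r ran from -0.36 to 0.89, with BGL2, EXG1 and GAS5 at 0.81 to 0.89 with each other. EXG2 stood nearer to the sporulation members, with r of 0.78 to 0.86 against them. These points share arrays and the common time-zero RNA, and the late times weigh most in them, so r is a description only.

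The genes most like each member over the 12 times were named by the highest r. For GAS2 they were the chitinase-related gene CTS2 (0.99), SSP1 of the prospore membrane leading edge (0.98) and SMA2 of prospore membrane assembly (0.98). GAS4 was closest to the sporulation septin SPR3 (0.99), followed by YGL230C and YER085C (both 0.98). SPR1 was closest to GAS2, YOL024W and YNL019C (all 0.98), and CRR1 to the B-type cyclin gene CLB4, YNL205C and ECM8 (all 0.95). BGL2 went with PFK2, a phosphofructokinase subunit gene (0.97), YBR287W (0.94) and the plasma membrane proton pump gene PMA1 (0.92).

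A further 27 wall glucan genes were read in the same contrast. From middle to late 1 of the 27 was called higher and 1 lower, against 3.31% and 0.318% of all genes tested. Their median change was -0.04, against 0.03 for all genes tested and 3.85 for the 4 sporulation members. In the glucan synthase group, 5 of 6 genes lay above 0 with a median of 1.01. SMI1, a regulator of glucan synthesis, rose by 1.67 ± 0.41 (SE, limma adjusted p = 0.041), from between -0.35 and 0.56 in the middle window to 1.86, 2.32 and 0.87 late. The catalytic subunit genes FKS1 and GSC2 were at -0.61 ± 0.48 and 0.95 ± 0.50, neither of them called.

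Among 9 genes of beta-1,6-glucan, the branching polymer that links wall proteins to the main chain, none was called by limma (median 0.53). At an unadjusted p under 0.05 there were 3 of 9, against 1191 of all 6283 genes, of which 228 were called. ROT1 had the smallest adjusted p of the 9, at 1.36 ± 0.36 (adjusted p = 0.060). The 12 other hydrolases and transglycosylases lay on the opposite side, with 0 of 12 above 0 and a median of -1.06. NCA3 of the SUN family fell by 1.72 ± 0.43 (SE, limma adjusted p = 0.042), at -1.75, -2.62 and -1.74 late, and it was above background on 3 of 6 late and 2 of 8 middle arrays in the later RNA. DSE2, a daughter-cell gene of cell separation, was at -2.07 ± 0.61 (adjusted p = 0.085), SUN4 at -1.90 ± 0.54 (0.075) and SIM1 at -1.49 ± 0.66 (0.24), none of them called.

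**Figure D5:**
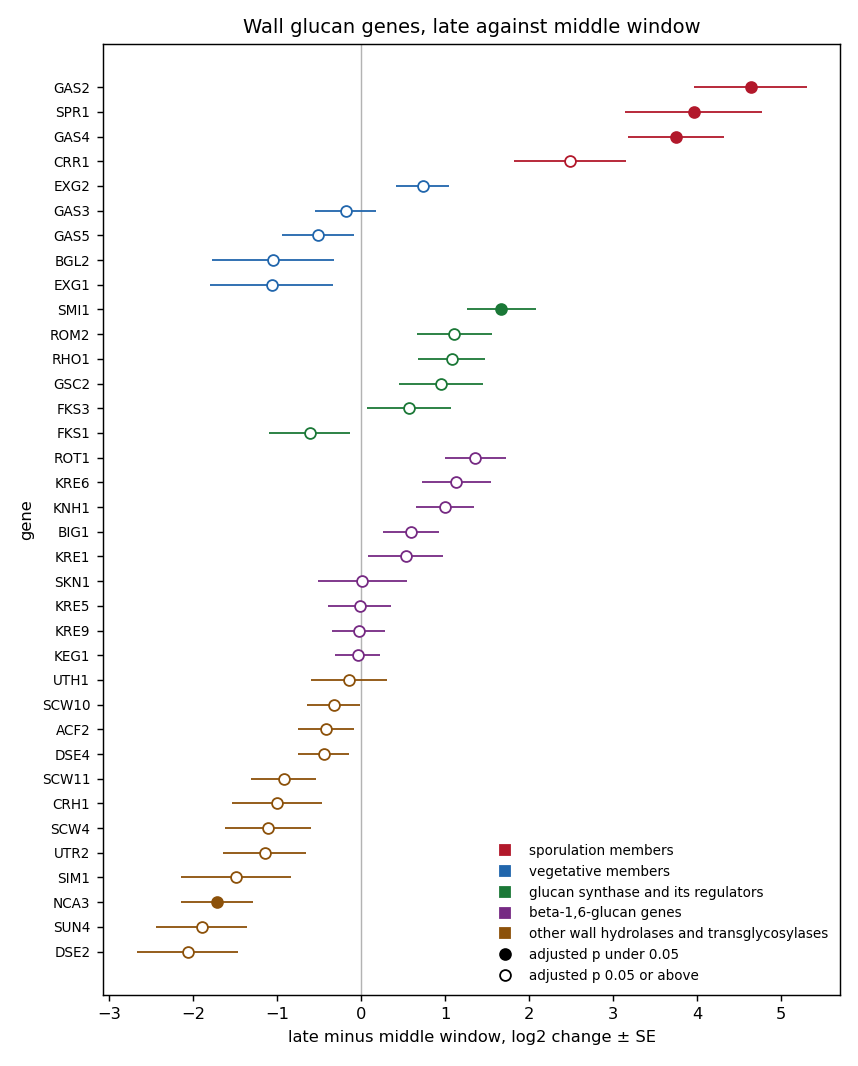
Late minus middle log2 change (horizontal axis, bars ± SE of the limma fit) for the 9 measured members and 27 other wall glucan genes (vertical axis), coloured by group. Filled points had an adjusted p under 0.05: GAS2, SPR1, GAS4, SMI1 and, below 0, NCA3.

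The genes that flank the members on the chromosome gave no call. None of the 16 flanking genes on the array was called from middle to late, where 3.63% of all genes were. At an unadjusted p under 0.05 there was 1 of 16, against 1191 of 6283 genes. Changes of the flanking genes ran from -0.99 to 0.73, with the smallest limma adjusted p at 0.137. HRT1 and YOL131W beside GAS4 were at 0.29 ± 0.33 and 0.47 ± 0.49, and IES4 and ULS1 beside SPR1 at 0.73 ± 0.57 and -0.25 ± 0.28. No member flanks another.

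Marker genes of haploid cells were read beside these results. None of 11 was called by limma late against middle, where 3.63% of all genes were. At an unadjusted p under 0.05 there were 3 of 11, against 1191 of 6283 genes. The median log2 ratio of the 11 lay between -0.35 and 0.46 at 11 of the 12 times. It was 1.29 at 5.5 h, when 9 of 11 lay above 0. STE18 had the highest late minus middle change of the list, 2.12 ± 0.72 (SE, limma adjusted p = 0.126). The part of these genes' level in the 5.5 h values of the members was not tested.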

How the data were processed

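Members and gene lists were chosen with earlier results of these data known. The deposited array files give an integrated intensity per spot and dye; per the file headers, 2 images were quantified per array, and no software is named. Intensities were taken as already background-subtracted, since some were negative; the files do not state it. Channel dyes follow the labels (Cy3 first, Cy5 second). The headers of B arrays list the Cy5 image first, which read as channel order would give them the opposite direction, so values with B arrays not turned are among the alternatives. The authors deposited 1 log2 ratio per gene and sample in a series table, with scale, centring and direction unstated; 11 of 12 columns followed the arrays (lowest r 0.877, highest 0.963) while that of 0.5 h had r = 0.157, and column medians were -0.01 to 0.06.

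Control spots, spots marked U or Z and values at or below 0 were left out; spots marked S were kept. Ratios were corrected by loess (span 0.3, 4 iterations), B arrays turned in sign (median r of A and B 0.270, and -0.270 if not turned), the 2 spots of a gene averaged, then A and B. A linear model with 4 window means and a spline were fitted in limma 3.58.1 (R 4.3.3, jsonlite 2.0.0) to the 6283 of 6293 genes with a value at every time, with Benjamini-Hochberg adjustment at 5%. The number of arrays limits the precision. On simulated data with 6283 genes, late minus middle recovered 87% of changes of 2 and 100% of changes of 4 on the log2 scale, with 14 false of 201 calls. Arrays of 1 orientation correlated no lower than -0.22.

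The plan counted GAS1 among the vegetative members, which are 5 without it. Locus tags matched 5716 of 6293 identifiers to a symbol in the RefSeq table (R64). All members are named; of the other wall glucan genes, every called gene, or otherwise the 4 largest late minus middle changes; and the 3 genes with the highest r for GAS2, GAS4, SPR1, CRR1 and BGL2. FKS1, GSC2, ROT1, STE18 and the flanking genes named were chosen after their values were seen, as were SIM1, SUN4 and DSE2. Bounds use the higher of the lowest above-background signal and the gene's own. Levels for the bounds were adjusted between arrays by limma's Aquantile method after loess. Alternatives were single dye orientations, background and spot handling, centring, scaling, a dim filter, a 24-array fit, the authors' table, other windows, a ratio of 0 as baseline and each time left out. Added after seeing the data were B arrays not turned and the 5.0 and 6.0 h samples left out.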

Additional observations from a re-analysis of the deposited data

Results flagged for a closer look

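In 18 groups of 4 times (9 members, early and middle windows), 3 values stood apart from the other times of their window by a gap over Dixon's 95% critical share of the window's range; chance gives about 1 in 20 such groups. GAS2 at 3.5 h, at 1.83, stood above the other middle times, and the value came from the B array. GAS3 at 2.0 h, at 1.53, stood above the other early times, mostly on the A array. GAS5 at 3.5 h, at -0.32, stood below the other middle times, which lay within 0.33 to 0.34, so the gap is large only beside that narrow range.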

How the results depend on the processing

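Depth does not apply to arrays; signal over background limits GAS2, GAS4 and SPR1 before the late window. The late minus middle count of 3 called members was 0 on either dye orientation by itself, with B arrays not turned and with windows that end at 1.5, 4.0 and 6.0 h, and 1 with the dimmest 25% of genes left out, which removes GAS2 and GAS4. It was 2 with scaling between arrays (GAS2 and GAS4) and 2 in the 24-array fit (GAS2 and SPR1). The late minus zero count of 3 was 0 in the first 5 of these settings and in the 24-array fit, 1 with no marked spot left out and 1 in the authors' deposited table, and 5 against a ratio of 0 (CRR1 and EXG2 added), where 22.6% of all genes were called. Where the late minus middle or late minus zero count was 0, 0 genes were called in all. For late minus middle the shares of all genes called were 2.48% with the dim filter, 0.573% with scaling and 2.79% in the 24-array fit. For late minus zero they were 0.7% with no marked spot left out and 0.718% in the authors' deposited table. The spline count of 2 was 0 on B arrays alone, with normexp (offset 50), with scaling between arrays, without the dimmest 25%, in the 24-array fit, with B arrays not turned and without the 5.0 and 6.0 h samples, and 1 with no marked spot left out, with median centring and in the authors' deposited table. For the spline, 0.191% of all genes were called without the dimmest 25% and 0.0826% in the 24-array fit. The other settings that gave a spline count of 0 called 0 genes. The settings that gave 1 called 0.525%, 0.398% and 0.15% of all genes, in that order. With 1 time left out in turn the counts ran from 2 to 4, from 2 to 3 and from 0 to 3. The shares of all genes called then ran from 1.97% to 7.42%, from 0.446% to 1.81% and from 0% to 2.32%. The spline count was 0 without the 0.0 h sample, without any one early sample and without the 4.0, 5.0 or 5.5 h sample. In those fits at most 0.207% of all genes were called. In the 24-array fit GAS4 was not included, having no ratio on 1 array. The late sporulation minus vegetative difference of 4.68 was -0.11 with B arrays not turned and 6.70 without the 5.0 and 6.0 h samples; it was 2.95 with scaling, 3.32 in the authors' deposited table and 3.36 with the other windows. The cause of these shifts was not tested, other than the dim filter.

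Changes of sign touched mostly uncalled values. With B arrays not turned, late minus middle was -0.17 for GAS2, 0.51 for GAS3, 0.50 for GAS5 and 0.64 for BGL2, late minus zero was -0.28 for GAS2, -0.30 for CRR1, 0.96 for EXG1 and 1.01 for BGL2, and middle minus early was -0.20 for CRR1. On A arrays alone GAS3 was at 0.32 late minus middle, and EXG1 and BGL2 at 0.95 and 0.31 late minus zero. On B arrays alone GAS5 was at -0.55 late minus zero, GAS3 at 0.69 middle minus early, and CRR1 and EXG1 at 0.13 and -0.11 early minus zero. Middle minus early for GAS3, near 0 in the reported fit, was 0.21 with median centring, 0.0028 with normexp, 0.145 with scaling, 0.17 in the authors' deposited table and 0.43 with the other windows. Late minus zero for EXG1 was 0.86 with scaling, 0.22 in the authors' deposited table and 0.47 with the other windows, and for GAS5 -0.32 with median centring, -0.34 against a ratio of 0 and -0.79 without the 5.0 and 6.0 h samples. Early minus zero was -0.23 for GAS5 and -0.37 for EXG1 against a ratio of 0, and -0.21 for GAS5 and 0.037 for CRR1 in the authors' deposited table, where GAS3 was at 0.33 late minus middle. Leaving out 1 time gave -0.19 to 0.63 for EXG1 early minus zero, -0.57 to 0.53 for EXG1 and -0.18 to 0.59 for GAS5 late minus zero, and -0.15 to 0.30 for GAS3 middle minus early. No paired analysis was possible because the labels give no replicate numbers shared between windows.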
